A study of Mus musculus with 16 samples.

Results

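The genes described here are 32 targets of the transcription factor p53, chosen by symbol as known targets with earlier results of these data known. They are genes of cell cycle arrest, apoptosis, DNA repair and metabolic stress, and genes that feed back on p53. Of these, 29 had probes on the array, 59 probes in all, against 16593 genes measured in total. The 22 members bright enough to be tested were among 6999 genes tested, all 22 on autosomes. A gene was tested if a probe exceeded a log2 value of 7 on at least 4 of 16 arrays, and it was then represented by its brightest such probe. All 22 exceeded 7 on 16 of 16 arrays. Another 7 members (Btg2, Pmaip1, Fas, Perp, Aen, Dram1 and Sesn2) were too dim to be tested, and 3 (Bax, Trp53 and Gdf15) were not analysed here.

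Total RNA of single whole mouse embryos at E9.5 was hybridised to Illumina MouseRef BeadChips, 1 array per embryo, with 4 MommeD1 females, 4 wildtype females, 4 MommeD1 males and 4 wildtype males. MommeD1 is a mutagen-induced allele that ends the reading frame of Smchd1 early, and the Smchd1 protein acts on chromatin and is needed for X inactivation. The MommeD1 embryos were homozygous for it, and all embryos were of the inbred FVB/n strain. The labels place the arrays on 2 chips of 8, with 2 arrays of each group on each chip. The comparison of MommeD1 with wildtype within each sex asks which transcripts change when Smchd1 is lost, in embryos with and without an inactive X chromosome. Values are log2 intensities as normalised by the authors.

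p53 is held at a low level by the ubiquitin ligase Mdm2 and accumulates when DNA damage, ribosomal stress or other insults block that degradation. It then binds a pair of adjoining half-sites near its targets and raises their transcription: Cdkn1a halts the cell cycle, genes such as Bbc3, Pmaip1 and Bax lead towards death, Ddb2, Xpc and Rrm2b serve DNA repair, and Mdm2 and Ccng1 act back on p53 itself. In the mouse embryo this restraint is essential, since embryos that lack Mdm2 die early unless p53 is removed as well.

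Promoter sequences, from 250 bases before to 50 after an annotated gene start, were matched for 23 of the 32 members in RefSeq (GRCm38.p6), as 31 promoters. They were searched on both strands for the p53 half-site, a motif of 10 letters that is its own reverse complement, and for a full site of a pair of half-sites 0 to 13 bases apart with at most 2 mismatches and with the core C and G of each half-site kept. An exact half-site stood in 12 of the 31 promoters (38.7%), against 8.4% of all 32851 promoters, and a full site in 6 (19.4%), against 4.1%. Counted by gene, a full site stood in 6 of 23 members (26.1%), against 4.7% of 27025 genes. These are matches of letters, and the members are genes known as p53 targets in the first place. Full sites were found for Cdkn1a, Ccng1, Rps27l, Gadd45a, Sesn1 and Bax, and a half-site without a full site for Mdm2, Polk, Ei24, Aen and Trp53. The upstream windows of Cdkn1a and Ccng1 are shown because these genes changed most in MommeD1 females. Both run 5′ to 3′ on the gene's strand up to an annotated gene start, with the full site of fewest mismatches in capitals. The Cdkn1a window shown lies at chr17:29090729-29090978, plus strand, with a site that has 0 mismatches and begins 73 bases before an annotated gene start. A further full-site match in it pairs the second capitalised half-site with the lower-case bases that follow. The window of another annotated Cdkn1a start, chr17:29093519-29093818, held 0 half-sites and 0 full sites. Ccng1 lies at chr11:40755287-40755536, minus strand, with a site that has 1 mismatch and begins 195 bases before the gene start.
Cdkn1a: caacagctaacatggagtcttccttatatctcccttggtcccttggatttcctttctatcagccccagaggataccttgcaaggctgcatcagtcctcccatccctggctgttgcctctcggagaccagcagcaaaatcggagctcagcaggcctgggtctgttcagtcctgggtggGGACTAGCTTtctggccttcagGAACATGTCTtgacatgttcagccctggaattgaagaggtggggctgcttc
Ccng1: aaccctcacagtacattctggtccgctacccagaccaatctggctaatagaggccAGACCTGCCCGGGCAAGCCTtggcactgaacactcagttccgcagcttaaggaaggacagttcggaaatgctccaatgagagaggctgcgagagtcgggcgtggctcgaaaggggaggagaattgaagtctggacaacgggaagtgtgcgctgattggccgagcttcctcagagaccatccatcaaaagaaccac

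The sites of 4 further members are shown with up to 4 flanking bases to set a member that rose in MommeD1 females, Rps27l, beside members that did not pass the threshold there. Capitals mark the half-sites. They lie at chr9:66946292-66946319 (plus strand) for Rps27l, chr6:67037438-67037463 (minus) for Gadd45a, chr10:41887253-41887275 (plus) for Sesn1 and chr10:117710931-117710948 (minus) for Mdm2, whose sequence is a single half-site. Rps27l and Sesn1 each also had a window at another annotated start without a match.
Rps27l: tggcGGGCTTGTTGAGACTTGTCCgggc
Gadd45a: GGACCTGGTTggctgaGGGCTAGCCC
Sesn1: GCGCTTGGCCttcAAGCTTGTTT
Mdm2: atagGAACTTGCCTagcg
Full sites thus stood both in members that rose and in members that did not pass. No match was found in these windows for Phlda3, Ercc5 or Apaf1, which did pass the threshold in females. Zmat3 and Trp53inp1, which also rose, had no promoter matched here and were not searched. p53 is known to act on Mdm2 through a second promoter inside the gene, so these windows do not cover every known site.

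The labels were borne out by the transcripts they name. Smchd1 lay at 7.34 to 7.60 in MommeD1 females against 9.78 to 9.98 in wildtype females, and at 7.35 to 7.58 in MommeD1 males against 9.72 to 9.88 in wildtype males. Xist lay between 8.77 and 9.34 in all females and between 6.01 and 6.35 in all males, and the Y-linked gene Kdm5d was above 7 in males alone. Every array had a median of 6.34. Yolk sac endoderm markers stood highest in 3 arrays, namely MommeD1 female 2 (mean log2 value 8.69), MommeD1 male 1 (7.90) and wildtype male 3 (7.90), so member counts are also given without them. The 4 macrophage markers on the array averaged 5.94 to 6.18 per array. In bulk RNA of whole embryos, fewer cells of a type and less RNA per cell cannot be told apart.

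In MommeD1 females a minority of p53 targets rose, led by the cell cycle inhibitor gene Cdkn1a at 1.93-fold and the cyclin gene Ccng1 at 1.81-fold. Relative to wildtype females, 7 of the 22 tested members rose (31.8%), 1 fell and 14 did not pass the threshold, an adjusted p of 0.05 in limma. The background in the same comparison was 7.47% of all genes called, 4.14% higher and 3.33% lower. Because the members were chosen with earlier results of these data known, these shares are a description and not independent evidence. The risen members were Cdkn1a, Ccng1, Phlda3, Zmat3, Trp53inp1, Rps27l and Ercc5, and the member that fell was Apaf1. At an unadjusted p under 0.05 there were 12 members, 10 higher and 2 lower, against 25.0% of all genes. The median log2 fold change of the members was 0.047, against -0.0085 over all genes, so many of them stayed close to 0. MommeD1 and wildtype females were fully separated for 6 members that were higher (Polk and 5 of the risen ones) and for 2 that were lower (Apaf1 and Mdm2), against 7.12% and 7.96% of all genes. By role, the risen members were 1 of 5 tested for cell cycle arrest, 2 of 6 for apoptosis, 1 of 5 for DNA repair, 3 of 4 for feedback and 0 of 2 for metabolic stress (limma), where 1 of the 2 had an unadjusted p under 0.05.

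**Figure D1:**
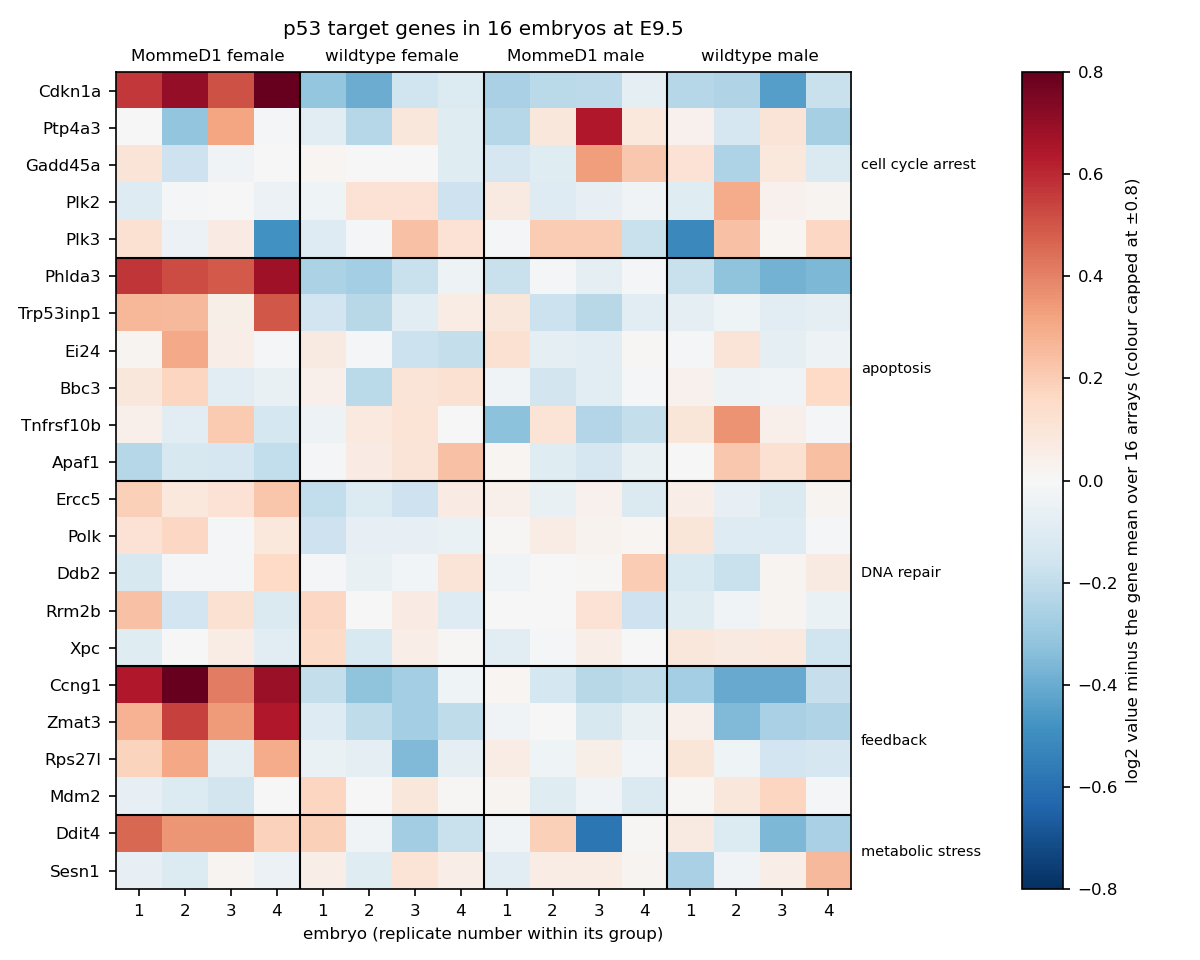
Log2 value of each of the 22 tested p53 targets (rows, grouped by role) on each of the 16 arrays (columns, by group and replicate number), as the difference from the gene's mean over all arrays, with colour capped at 0.8. Cdkn1a, Phlda3, Ccng1 and Zmat3 are red on all 4 MommeD1 female arrays and near or below their means elsewhere.

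Among genes of cell cycle arrest, Cdkn1a, which encodes the cyclin-dependent kinase inhibitor p21, had log2 values of 8.97, 9.11, 8.92 and 9.44 in MommeD1 females, against 8.10, 8.01, 8.25 and 8.30 in wildtype females. Every MommeD1 female lay above every wildtype female, with MommeD1 female 4 highest. The rise was 0.95 ± 0.10 on the log2 scale (SE, n = 4 against 4), or 1.93-fold, with a 95% confidence interval of 0.75 to 1.15 (limma, adjusted p = 3.6e-06). The other arrest genes tested did not pass: the stress sensor Gadd45a averaged 8.84 ± 0.11 in MommeD1 females and 8.83 ± 0.05 in wildtype females (SD, n = 4 each). The polo-like kinase genes Plk2 (-0.05 ± 0.08) and Plk3 (-0.14 ± 0.15) and the phosphatase gene Ptp4a3 (0.07 ± 0.14) also stood within their errors. Plk3 was spread widely, with the lowest adjusted p of these 4 genes at 0.595.

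Among genes of apoptosis, Phlda3 on chromosome 1, whose protein competes with the survival kinase Akt for membrane lipids, gave 8.73, 8.68, 8.65 and 8.84 in MommeD1 females, against 7.91, 7.89, 7.98 and 8.12 in wildtype females. The groups were separated by more than the range within either of them. The rise was 0.75 ± 0.07, or 1.68-fold (interval 0.61 to 0.89, limma adjusted p = 1.1e-06), the lowest p of any member.

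Trp53inp1 on chromosome 4, whose nuclear protein acts in p53-dependent death and autophagy, gave 8.72, 8.71, 8.50 and 8.95 in MommeD1 females, against 8.30, 8.23, 8.37 and 8.51 in wildtype females. MommeD1 female 3 and wildtype female 4 overlapped, at 8.50 and 8.51. The rise was 0.37 ± 0.08, or 1.29-fold (limma, adjusted p = 0.0133).

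Apaf1 on chromosome 10, which encodes the scaffold on which the initiator caspase is activated, was the member that fell. It gave 9.30, 9.40, 9.39 and 9.33 in MommeD1 females, against 9.51, 9.59, 9.63 and 9.76 in wildtype females, without overlap. It fell by 0.27 ± 0.07, a 1.20-fold reduction (limma, adjusted p = 0.0174). Without wildtype female 4, the highest of its group, the adjusted p was 0.0567, and a dimmer probe of Apaf1 stood at -0.13 ± 0.07 (adjusted p = 0.289, every kept probe tested).

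The remaining apoptosis genes did not pass in females. The BH3-only gene Bbc3 (Puma) averaged 8.94 ± 0.12 in MommeD1 females and 8.92 ± 0.16 in wildtype females (SD, n = 4 each), a difference of 0.02 with an interval of -0.14 to 0.18. The death receptor gene Tnfrsf10b stood at -0.03 ± 0.10. Ei24, an endoplasmic reticulum protein, stood at 0.16 ± 0.08 with an unadjusted p of 0.0461 and an adjusted p of 0.192 in limma.

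Among genes of DNA repair, Ercc5 on chromosome 1, which encodes the XPG endonuclease of nucleotide excision repair, gave 9.64, 9.53, 9.56 and 9.67 in MommeD1 females, against 9.25, 9.34, 9.28 and 9.51 in wildtype females. The groups came close to each other (9.53 against 9.51) and did not overlap. The rise was 0.26 ± 0.07, or 1.19-fold (limma, adjusted p = 0.0225). It did not pass without MommeD1 female 1 (0.0519), MommeD1 female 4 (0.0640), wildtype female 1 (0.0656) or wildtype female 3 (0.0686), nor without the filter on dim probes (0.0591).

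Polk, a translesion polymerase, gave 7.53, 7.58, 7.40 and 7.50 in MommeD1 females, against 7.25, 7.35, 7.35 and 7.36 in wildtype females. These arrays did not overlap either, but the difference of 0.18 ± 0.06 did not pass the threshold (limma, adjusted p = 0.0674). Damage recognition genes stood near 0: Xpc at -0.06 ± 0.07, and Ddb2 with a mean of 7.45 in both groups. Rrm2b, the p53-inducible subunit of ribonucleotide reductase, stood at -0.01 ± 0.08.

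Genes that feed back on p53 held the largest share of members that rose. Ccng1, cyclin G1, which brings protein phosphatase 2A to Mdm2, gave 10.61, 10.86, 10.38 and 10.66 in MommeD1 females, against 9.78, 9.65, 9.70 and 9.94 in wildtype females. Even the lowest MommeD1 female, female 3, lay above the highest wildtype female. The rise was 0.86 ± 0.09, or 1.81-fold (interval 0.67 to 1.05, limma adjusted p = 5.8e-06).

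Zmat3 on chromosome 3, which encodes a zinc finger RNA-binding protein, gave 9.57, 9.84, 9.63 and 9.93 in MommeD1 females, against 9.19, 9.09, 9.02 and 9.09 in wildtype females. Again the groups did not overlap. The rise was 0.65 ± 0.08, or 1.57-fold (interval 0.47 to 0.82, limma adjusted p = 7.9e-05).

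Rps27l, a paralog of the ribosomal protein gene Rps27 whose product binds Mdm2, was the brightest member. It gave 13.90, 14.03, 13.65 and 14.02 in MommeD1 females, against 13.67, 13.65, 13.37 and 13.65 in wildtype females. MommeD1 female 3 lay among the wildtype females, while wildtype female 3 stood below the rest of its group. The rise was 0.32 ± 0.08, or 1.25-fold (limma, adjusted p = 0.0269). Its call was lost in 9 of 21 alternatives, with an adjusted p of 0.0968 without wildtype female 3, 0.0802 without MommeD1 female 2, 0.0814 without MommeD1 female 4 and 0.0513 without MommeD1 female 1. Because Rps27 is a close paralog, the level of Rps27l is uncertain where the probe cannot tell them apart.

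Mdm2, the best known feedback target, gave 10.19, 10.15, 10.11 and 10.26 in MommeD1 females, against 10.43, 10.26, 10.35 and 10.27 in wildtype females. The MommeD1 females lay at or below the lowest wildtype female, the closest pair reading 10.26 each to 2 decimals. The difference of -0.15 ± 0.06 had an interval of -0.28 to -0.03 and did not pass after adjustment (limma, adjusted p = 0.116). Its interval holds no positive value, unlike those of Ccng1, Zmat3 and Rps27l, which hold no negative one. Trp53 was not analysed here.

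Of the targets linked to metabolic stress, Ddit4 (Redd1), an inhibitor of mTORC1 signalling, gave 9.64, 9.53, 9.53 and 9.36 in MommeD1 females, against 9.37, 9.15, 8.90 and 9.0 in wildtype females. MommeD1 female 4 and wildtype female 1 overlapped narrowly. The difference of 0.41 ± 0.13 exceeded that of Trp53inp1 but had a larger error (limma, adjusted p = 0.0627). With chip as a block, Ddit4 passed as well (0.41, adjusted p = 0.0154). Sesn1, a sestrin that also restrains mTORC1, stood at -0.08 ± 0.08.

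**Figure D2:**
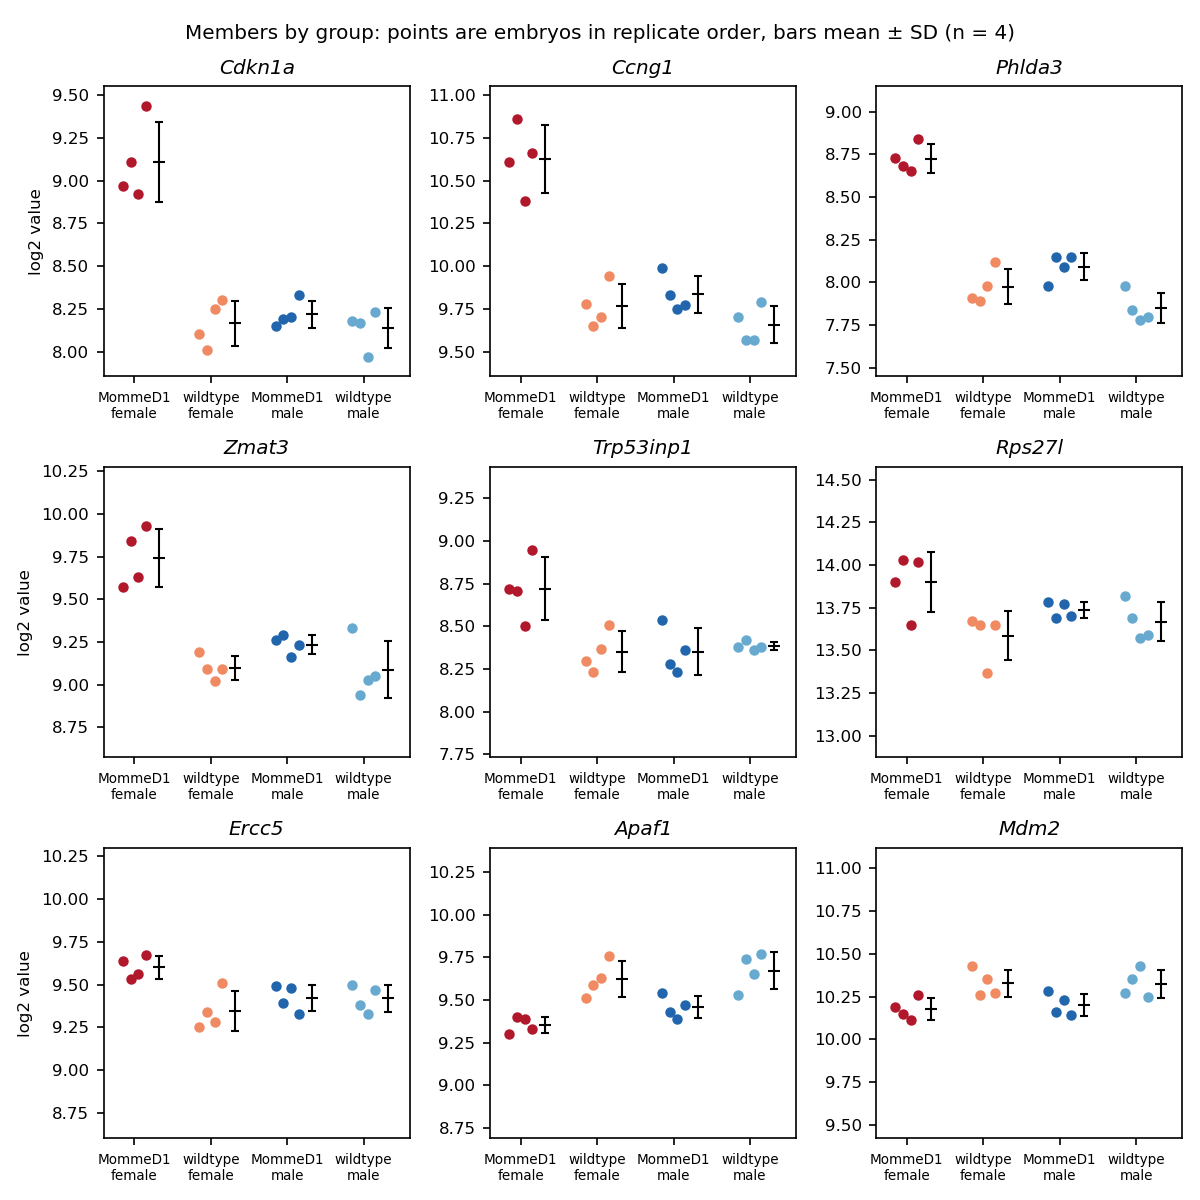
Log2 value of 9 members on each array (points, left to right by replicate number) in the 4 groups, with the mean and SD of the 4 arrays beside them. All panels span the same number of log2 units on different levels. Cdkn1a, Ccng1, Phlda3 and Zmat3 stand apart in MommeD1 females. Apaf1 and Mdm2 have their lowest mean there, but MommeD1 males overlap MommeD1 females for both (means of 10.20 and 10.17 for Mdm2).

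Members with several probes allowed the same transcript to be read more than once. Ccng1 had 3 bright probes, and its other two rose by 0.87 ± 0.10 (adjusted p = 2.2e-05) and 1.12 ± 0.10 (adjusted p = 1.1e-06) in females (limma, every kept probe tested). A second probe of Cdkn1a with means of 7.58 in MommeD1 females and 7.18 in wildtype females rose by 0.40 ± 0.09 (adjusted p = 0.00713). These probes moved the same way as the main ones, with a smaller value for the dimmer Cdkn1a probe. Of the 31 member probes too dim to be tested, those of 2 genes separated the female groups. Another Cdkn1a probe averaged 7.0 in MommeD1 females and 6.44 in wildtype females, and a second Phlda3 probe 7.23 and 6.49. Neither pair of groups overlapped. Dim probes of Bbc3 (0.18) and Pmaip1 (-0.22) separated the male groups. Among tested genes, 7.12% were higher without overlap in females, and in males 3.27% were higher and 3.04% lower. The share over all dim probes was not counted. Second probes of Gadd45a (0.17 ± 0.09, adjusted p = 0.263) and Mdm2 (-0.07 ± 0.07, adjusted p = 0.579) did not pass in females.

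**Figure D3:**
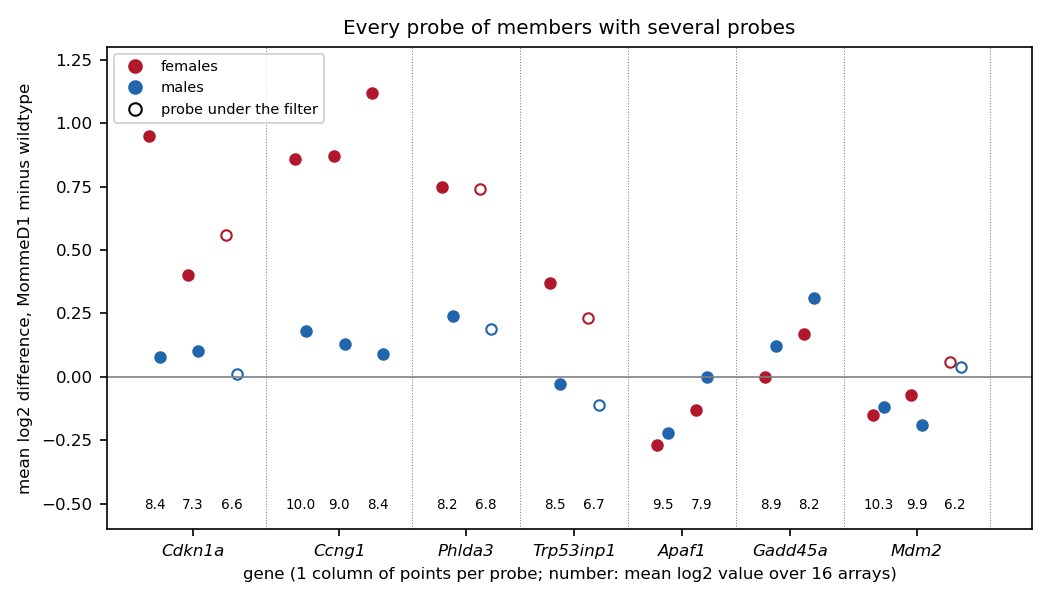
Mean log2 difference, MommeD1 minus wildtype, in females (red) and males (blue) for every probe of 7 members, with the probe's mean log2 value over 16 arrays printed below and open circles for probes under the filter. All 3 probes of Cdkn1a and of Ccng1 are above 0.35 in females and under 0.20 in males.

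In males no p53 target passed the threshold. limma called 0 of the 22 tested members, with 3 at an unadjusted p under 0.05, against 0.114% of all genes past the threshold (0.0143% lower) and 11.2% at the unadjusted p. Their median log2 fold change was 0.041, against 0.00083 over all genes. Cdkn1a gave 8.15, 8.19, 8.20 and 8.33 in MommeD1 males, against 8.18, 8.17, 7.97 and 8.23 in wildtype males, overlapping groups that differed by 0.08 ± 0.10 with an interval of -0.12 to 0.28. A rise of the size seen in females lies outside that interval.

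Phlda3 came nearest in males. It gave 7.98, 8.15, 8.09 and 8.15 in MommeD1 males, against 7.98, 7.84, 7.78 and 7.80 in wildtype males. No MommeD1 male lay below a wildtype male, although MommeD1 male 1 and wildtype male 1 both read 7.98 to 2 decimals. The difference was 0.24 ± 0.07 (interval 0.10 to 0.39, limma adjusted p = 0.186). Phlda3 was the single member of 22 whose male groups did not overlap and that was higher, against 3.27% of all genes, and 0 members were lower in that way, against 3.04%.

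Ccng1 gave 9.99, 9.83, 9.75 and 9.77 in MommeD1 males, against 9.70, 9.57, 9.57 and 9.79 in wildtype males. These groups overlapped, and the difference of 0.18 ± 0.09 had an interval of -0.01 to 0.37 (limma, adjusted p = 0.468). Zmat3 gave 9.26, 9.29, 9.16 and 9.23 in MommeD1 males, against 9.33, 8.94, 9.03 and 9.05 in wildtype males. Wildtype male 1 lay above all 4 MommeD1 males, and the difference was 0.15 ± 0.08 (adjusted p = 0.523).

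The 3 members that rose least in females showed overlapping groups in males. Trp53inp1 gave 8.54, 8.28, 8.23 and 8.36 in MommeD1 males, against 8.38, 8.42, 8.36 and 8.38 in wildtype males (-0.03 ± 0.08, limma adjusted p = 0.907). Rps27l gave 13.78, 13.69, 13.77 and 13.70 in MommeD1 males, against 13.82, 13.69, 13.57 and 13.59 in wildtype males (0.07 ± 0.08, adjusted p = 0.801). Ercc5 gave 9.49, 9.39, 9.48 and 9.33 in MommeD1 males, against 9.5, 9.38, 9.33 and 9.47 in wildtype males (adjusted p = 0.994). MommeD1 male 1 was the highest of the 8 males for Trp53inp1, and wildtype male 1 for Rps27l and Ercc5.

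Apaf1 and Tnfrsf10b had negative values in males at an unadjusted p under 0.05. Apaf1 gave 9.54, 9.43, 9.39 and 9.47 in MommeD1 males, against 9.53, 9.74, 9.65 and 9.77 in wildtype males. Only MommeD1 male 1 reached into the wildtype range, and the difference was -0.22 ± 0.07 (limma, adjusted p = 0.205), beside -0.27 ± 0.07 in females. Tnfrsf10b averaged 7.33 ± 0.19 in MommeD1 males and 7.61 ± 0.16 in wildtype males (SD, n = 4 each), a difference of -0.28 ± 0.10 (adjusted p = 0.258). Mdm2 gave 10.28, 10.16, 10.23 and 10.14 in MommeD1 males, against 10.27, 10.35, 10.43 and 10.25 in wildtype males. MommeD1 male 1 lay inside the wildtype range, and the difference was -0.12 ± 0.06 (adjusted p = 0.480). Its second probe, at -0.19 ± 0.07, had male groups that did not overlap (adjusted p = 0.327). A second probe of Gadd45a likewise separated the male groups, at 0.31 ± 0.09 (adjusted p = 0.206), while its brighter probe stood at 0.12 ± 0.10.

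Whether the effect of MommeD1 differed between the sexes was tested directly, as the female effect minus the male effect. It was larger in females for 3 of 22 members, all 3 of them among those that rose in females. Over all genes the share was 0.357% (0.343% larger in females). In limma 7 members had an unadjusted p under 0.05, against 7.93% of all genes. The choice of members with earlier results known bears on these shares as well. The difference was 0.87 ± 0.14 for Cdkn1a (adjusted p = 0.00366), 0.68 ± 0.13 for Ccng1 (adjusted p = 0.0177) and 0.51 ± 0.10 for Phlda3 (adjusted p = 0.0171; SE, n = 4 in each of 4 groups, limma). For Phlda3 it did not pass without wildtype female 1 (adjusted p = 0.0519). The other two Ccng1 probes also differed between the sexes, by 0.75 ± 0.15 (adjusted p = 0.0205) and 1.04 ± 0.15 (adjusted p = 0.00208; limma, every kept probe tested). The second, dimmer probe of Cdkn1a did not pass this test, at 0.30 ± 0.12 (adjusted p = 0.519). Zmat3 (0.50 ± 0.12, adjusted p = 0.0781) and Trp53inp1 (0.40 ± 0.12, adjusted p = 0.287) did not pass, so the sexes are not shown to differ for them. For Zmat3 this depended on the setting: without MommeD1 female 1 the adjusted p was 0.0443, and with trended and robust moderation 0.0412. For Apaf1 the difference was -0.05 ± 0.09, with an interval of -0.24 to 0.14.

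**Figure D4:**
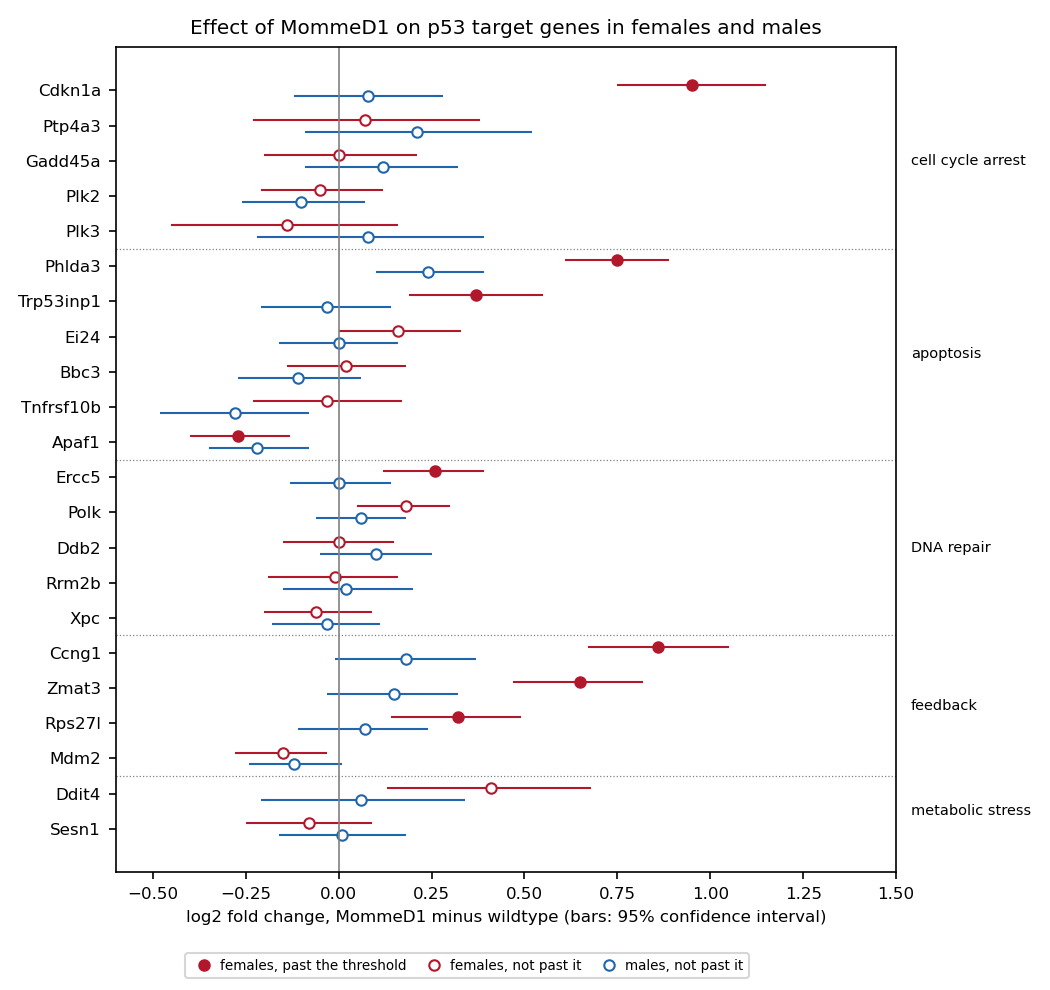
Log2 fold change of MommeD1 over wildtype for the 22 tested members in females (red) and males (blue), with 95% confidence intervals from the limma fit and filled circles for adjusted p under 0.05. For Cdkn1a, Phlda3, Trp53inp1, Ccng1 and Zmat3 the female interval lies wholly above the male interval, whereas for Apaf1 and Mdm2 the intervals overlap on the negative side.

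Between the wildtype sexes the members did not separate. In wildtype females relative to wildtype males, 0 of 22 members were called by limma, against 0.0714% of all genes, and at an unadjusted p under 0.05 there were again 0, against 2.80%. Log2 differences ran from -0.08 to 0.13, and 0 members had 4 females wholly above or wholly below the 4 males, against 1.07% and 0.929% of all genes. This comparison uses the same wildtype arrays as those above.

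The MommeD1 females were also ranked among themselves for the members that rose. These ranks are a description, and the same was not counted over all genes. Over the 7 risen members, MommeD1 female 4 was highest in 5 and first or second in all 7, MommeD1 female 2 was highest in the other two, and MommeD1 female 3 was lowest in 5. A mean over the 22 tested members of each value minus the gene's mean over 16 arrays was 0.14, 0.14, 0.12 and 0.15 in MommeD1 females, against -0.04, -0.10, -0.04 and -0.03 in wildtype females. In males it was -0.05, -0.02, -0.02 and -0.04 in MommeD1 arrays, against -0.05, -0.04, -0.08 and -0.05 in wildtype arrays. The group means differed by 0.191 in females and by 0.022 in males, given as a description. This mean is drawn up by the members that changed most. The median log2 fold change of the members in females was 0.047, and 14 did not pass. The female difference was 0.159 when the members too dim to be tested were averaged in.

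Markers of other tissues were read on the same arrays. Yolk sac endoderm markers (10 of 12 listed on the array, 6 of them under 7 on average, among them Fga, Fgb and Fgg) spanned 6.41 to 8.69 in MommeD1 females, against 6.67 to 7.50 in wildtype females, and 0 of the 5 tested passed in limma in either sex. MommeD1 female 1, with the lowest yolk sac level of its group at 6.41, and MommeD1 female 2, with the highest at 8.69, both had a p53 target mean of 0.14. Without the 3 arrays high in these markers, 7 members passed in females, Rps27l being lost (adjusted p = 0.0921). Of the difference between the sexes 2 members were then left, Phlda3 being lost (adjusted p = 0.0637). Over all genes 4.14% were called higher in MommeD1 females. Cardiac markers rose in 2 of 7 tested there, with a mean level of 10.23 to 10.48 against 10.12 to 10.23 in wildtype females. Neural progenitor markers rose in 2 of 4 tested, at 7.96 to 8.14 in MommeD1 females against 7.83 to 7.89 in wildtype females, with Pax6 and Sox1 under 7. The neural progenitor level was thus higher in all 4 MommeD1 females than in any wildtype female, as the p53 target mean was. Among single genes 7.12% were higher without overlap, and the share over lists of genes was not counted. The part of the cardiac and neural progenitor markers in the change of the p53 targets was not tested. Primitive erythroid markers (8 of 9 on the array) passed in 0 of 7 tested in limma, at 11.81 to 11.84 in MommeD1 females against 11.60 to 12.10 in wildtype females. Somite and mesoderm markers passed in 0 of 4 tested, at 7.72 to 8.04 in MommeD1 females against 7.77 to 8.15 in wildtype females. Decidua markers passed in 0 of 3 tested, at 6.80 to 6.96 against 6.73 to 6.84.

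**Figure D5:**
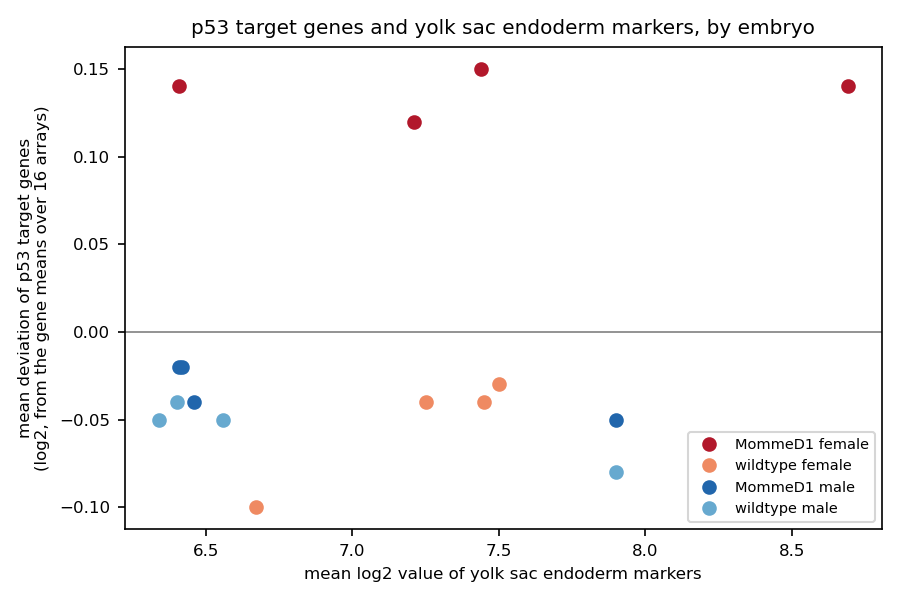
Mean deviation of the 22 tested p53 targets from their means over 16 arrays (vertical, log2) against the mean log2 value of the yolk sac endoderm markers (horizontal), 1 point per embryo, coloured by group. The 4 MommeD1 females lie at 0.12 to 0.15 across the whole range of the marker level, and the other 12 embryos lie below 0. The members that changed most draw this mean up: the median log2 fold change of the members in females was 0.047.

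The 2 chips gave female effects of the same sign for all 8 called members. Within the first and the second chip, with 2 arrays per group each, Cdkn1a stood at 0.98 and 0.91, Ccng1 at 1.02 and 0.70, and Phlda3 at 0.81 and 0.70. Zmat3 stood at 0.57 and 0.72, Trp53inp1 at 0.45 and 0.29, Rps27l at 0.31 and 0.33, Ercc5 at 0.29 and 0.22, and Apaf1 at -0.20 and -0.34. The fits within a chip called 3 members on the first chip and 4 on the second. The difference between the sexes for Cdkn1a was 0.99 and 0.75 on the chips, for Ccng1 0.74 and 0.62, and for Phlda3 0.65 and 0.37, with 0 members past the threshold within either chip in limma.

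The 7 members too dim to be tested lay between 5.54 and 7.15 on every array, around the array median of 6.34. They hold several of the classical death genes: Pmaip1 (Noxa), the death receptor gene Fas, the desmosomal protein gene Perp, the exonuclease gene Aen and the autophagy gene Dram1, beside the antiproliferative gene Btg2 and the sestrin gene Sesn2. Tested without the filter, 0 of the 7 passed in females (limma). Sesn2 alone had an unadjusted p under 0.05, at 0.20 ± 0.09 (adjusted p = 0.327). Its groups averaged 6.91 ± 0.05 in MommeD1 females and 6.71 ± 0.21 in wildtype females (SD, n = 4 each). That these genes did not pass does not show that they were unchanged.

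Wider lists of the pathway, also chosen with earlier results of these data known, set the members in context. Of 32 tested further p53 targets, 5 rose in MommeD1 females and 0 fell, against 4.14% higher and 3.33% lower over all genes, with 11 at an unadjusted p under 0.05, against 25.0%, and a median of 0.071. The 5 were Dcxr, a sugar and carbonyl reductase (0.37 ± 0.08, adjusted p = 0.00966), the adenylate kinase gene Ak1 (0.36 ± 0.10, adjusted p = 0.0296), the thiamine transporter gene Slc19a2 (0.33 ± 0.07, adjusted p = 0.0106), Sertad1 (0.24 ± 0.07, adjusted p = 0.0356) and the polyamine acetyltransferase gene Sat1 (0.24 ± 0.07, adjusted p = 0.0449; limma, SE, n = 4 against 4). Sat1 is X-linked, unlike the 22 members.

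Cell cycle genes that p21 represses through the DREAM complex showed 0 higher and 1 lower of 25 tested in MommeD1 females, against 4.14% higher and 3.33% lower over all genes, with 4 at an unadjusted p under 0.05, against 25.0%, and a median of -0.056. The share past the threshold was near that of all genes. The one that fell was Plk1, the mitotic kinase, by 0.23 ± 0.06 (limma, adjusted p = 0.0152). Regulators of p53 passed in 0 of 21 in limma, with 4 at an unadjusted p under 0.05 (1 higher, 3 lower) and a median of -0.031. Members of the Bcl2 family and caspases passed in 0 of 16, with 3 at an unadjusted p under 0.05, all lower, and a median of -0.013, each list again beside 25.0% of all genes at the unadjusted p. Both medians lie near that of all genes, -0.0085. In males 0 genes of these 4 lists passed in limma, with an unadjusted p under 0.05 for 4, 0, 3 and 0 of them in the order given, and the female effect minus the male effect was past the threshold for 0 genes of any list.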

How the data were processed

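Total RNA from 16 single E9.5 embryos was measured on Illumina MouseRef BeadChips. The deposited log2 values had been normalised by the authors, whose processing notes name limma; every array had a minimum of 5.26, a median of 6.34 and a maximum of 15.0. How background was treated is not stated in the sources used here. A further table of signals and detection p-values held 32 columns that no label ties to an embryo and was not used, so filtering used brightness: a probe was kept if over 7 on at least 4 of 16 arrays (9785 of 25697 probes). By the platform annotation 23978 probes had 1 symbol, 0 had several and 1719 had none, and 23962 of the named probes (99.9%) matched the GRCm38.p6 annotation. Each of 6999 genes was its kept probe with the highest mean. Group means were fitted to all 16 arrays (limma 3.58.1, R 4.3.3, lmFit and eBayes, 12 residual degrees of freedom) with Benjamini-Hochberg adjustment over all genes and a threshold of 0.05. Errors on log2 fold changes are standard errors. The procedure was tested on simulated data.

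The members, lists and rules were chosen with earlier results of these data known. All 32 members are accounted for, those past the threshold in any contrast and Mdm2 with every array, and list genes if past the threshold. The precision is limited by 4 arrays per group. Alternatives were another filter, every kept probe, chip and replicate blocks, each chip alone, other moderation, array weights and leaving out each array. A set leaving out 3 arrays with high yolk sac endoderm markers was added after seeing the data.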

Additional observations from a re-analysis of the deposited data

Results flagged for a closer look

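In 92 groups of 4 arrays, 1 array stood apart from the other 3 of its group in 4 by Dixon's test, where chance flags about 1 in 20 groups. They were Rps27l in wildtype female 3 (13.37), Polk in wildtype female 1 (7.25), Xpc in wildtype male 4 (8.27) and Gadd45a in wildtype female 4 (8.76). The first of these bears on a call, since Rps27l did not pass in females without that array (limma, adjusted p = 0.0968).

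The effect of MommeD1 differed between females and males in 3 members, by the test of the difference itself: Cdkn1a by 0.87, Ccng1 by 0.68 and Phlda3 by 0.51 on the log2 scale, each larger in females.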

How the results depend on the processing

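No member changed direction in a called value. Cdkn1a, Ccng1 and Phlda3 passed in females in all 21 alternatives (log2 fold changes of 0.67 to 1.01, 0.70 to 1.02 and 0.70 to 0.81), Zmat3 in 20, Trp53inp1 in 19, Apaf1 in 18, Ercc5 in 14 and Rps27l in 12. In females 8 members and 523 genes were called. Genes were 287 without a filter and 25 and 42 within the first and second chip. They were 326 when 3 arrays with high yolk sac endoderm markers were left out. Without 1 array they were 293 (without wildtype female 3) to 449, with 311 without MommeD1 female 2. Other settings called more genes: 568 with the mean of kept probes and 577 with a filter over 8 on 4 arrays. Trended and robust moderation called 620, and chip as a block 706. Members were 9 with chip as a block, Ddit4 being added (limma, adjusted p = 0.0154), 3 and 4 within the chips and 6 to 9 without 1 array. They were 6 without a filter and 9 with a filter over 8 on 4 arrays. In males 8 genes were called, and 13 with every kept probe tested, 14 with chip as a block, 3 within the first chip, 20 with trended and robust moderation, 42 with array weights, 24 without those 3 arrays, and 6 to 58 without 1 array (58 without MommeD1 male 1), with 0 members throughout. The difference between the sexes called 25 genes and 3 members, and 53 probes with every kept probe tested. Within either chip it called 0 genes and 0 members, and without those 3 arrays 14 genes. Without 1 array it called 16 (without wildtype female 1) to 27 genes and 2 to 4 members. Between the wildtype sexes 5 genes were called, 2 within each chip and 5 to 6 without 1 array, with 0 members. With every kept probe tested, 8 probes passed there. The mean over members differed by 0.191 in females, 0.159 over all members on the array and 0.175 to 0.199 without 1 array, and by 0.022 in males, 0.016 to 0.027 without 1 array. The cause of these shifts was not tested. The fits within a chip also had fewer arrays, 2 per group.

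Replicate numbers were not used as pairs in the main fit. Deviations of same-numbered arrays correlated at -0.39 to 0.40 (mean 0.0519, over 0.1 in 9 of 24 pairs). Arrays of different groups and numbers correlated at a mean of -0.0172. Each replicate number lay on a single chip, so number and chip are not separate here, and whether the numbers pair embryos was not settled. With the replicate number as a block, 616 genes and 9 members passed in females, 8 genes and 0 members in males, 25 genes and 3 members for the difference, and 5 genes between the wildtype sexes. The precision is limited by 4 arrays per group.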
